A study of Mus musculus with 18 samples.

Results

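Proteasome subunit genes are described here in mouse bone marrow derived macrophages. They were chosen by symbol, as every gene of the deposited table whose name is Psma, Psmb, Psmc, Psmd or Psme followed by a number. The rule found 43 of the 16474 genes listed, and all 43 were high enough to be tested. Marrow of 8-week-old C57BL/6 mice, wild type (WT) or p110g-/-, was differentiated with M-CSF, the macrophage growth factor, at 50 ng/ml over 6 days. p110gamma, encoded by Pik3cg, is the catalytic subunit of phosphoinositide 3-kinase gamma, and the labels do not describe the allele. Cells of both genotypes then stayed in M-CSF at 20 ng/ml. For 24 h they received nothing else, or IFNg (whose dose the labels give in a misspelt unit) with the bacterial product LPS at 100 ng/ml, and for 48 h IL-4 at 20 ng/ml, a cytokine of the alternative macrophage state. Each of the 6 groups held 3 libraries, numbered 1 to 3 in the labels, and all 6 groups received M-CSF. Nothing in the labels says that the 3 libraries came from separate animals or cultures, so p-values measure only the spread between these libraries.

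The proteasome is the protease that degrades ubiquitin-tagged proteins. Its 20S core is a barrel of outer alpha rings and inner beta rings, and Psmb5, Psmb6 and Psmb7 encode the catalytic beta subunits of the standard core. Interferon gamma induces 3 replacement subunits, Psmb8, Psmb9 and Psmb10 (LMP7, LMP2 and MECL-1), which form the immunoproteasome and favour peptides suited to MHC class I. The 19S particle, with Psmc ATPases and Psmd non-ATPases, caps the core, recognises ubiquitin and unfolds substrates. Psmd5, Psmd9 and Psmd10 are classed as chaperones of 19S assembly and not as subunits, and the symbol rule keeps them among the 43. Psme1 and Psme2 encode the interferon-inducible PA28 alpha and beta activator, Psme3 the nuclear PA28 gamma and Psme4 PA200. In macrophages the immunoproteasome feeds antigen presentation.

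Sequence near the transcription start is shown for a choice of members: 3 inducible beta subunits, PA28 alpha and 2 standard catalytic subunits. Every stretch printed, other than that of Psmb9, holds a match to a searched pattern, so the stretches do not represent the 43 members. RefSeq windows (GRCm38.p6) of 250 bases before and 50 after a start were matched by symbol for 36 of the 43 members, in 39 windows. The interferon-stimulated response element was searched as GAAA, any 2 bases and GAAA, the gamma-activated site as TTCNNNGAA and the antioxidant response element as TGACNNNGC, on both strands. A pattern for STAT6, TTC, any 4 bases and GAA, was added after the values were seen. Capitals mark the matches, and each sequence reads 5′ to 3′ on the strand of its gene.
Psmb8 (chr17:34198045-34198194, plus strand): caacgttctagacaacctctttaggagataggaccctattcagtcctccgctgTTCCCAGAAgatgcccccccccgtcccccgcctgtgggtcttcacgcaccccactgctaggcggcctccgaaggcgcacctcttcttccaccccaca
Psmb9 (chr17:34187331-34187555, minus strand): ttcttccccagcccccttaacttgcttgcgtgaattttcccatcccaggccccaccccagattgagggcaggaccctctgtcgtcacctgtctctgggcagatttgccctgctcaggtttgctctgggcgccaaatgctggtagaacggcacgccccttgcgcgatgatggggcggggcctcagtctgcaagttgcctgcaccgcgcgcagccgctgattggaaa
Psmb10 (chr8:105938393-105938492, minus strand): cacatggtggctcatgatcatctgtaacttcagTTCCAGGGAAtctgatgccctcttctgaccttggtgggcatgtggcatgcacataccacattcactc
Psme1 (chr14:55578494-55578523, plus strand): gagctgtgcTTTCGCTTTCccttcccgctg
Psmb5 (chr14:54617996-54618095, minus strand): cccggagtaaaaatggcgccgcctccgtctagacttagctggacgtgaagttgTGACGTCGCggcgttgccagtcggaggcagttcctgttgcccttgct
Psmb6 (chr11:70525257-70525356, plus strand): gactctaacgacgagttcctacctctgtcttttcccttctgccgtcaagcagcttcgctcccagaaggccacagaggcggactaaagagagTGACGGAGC

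The Psmb8 match to the gamma-activated site begins 97 bases before the start. The Psme1 match to the interferon-stimulated response element, on the opposite strand, begins at base 10 of the transcript. The Psmb5 and Psmb6 matches to the antioxidant response element begin 47 and 9 bases before their starts. The Psmb9 sequence is the whole stretch of 225 bases between its start and that of Tap1, the peptide transporter gene on the other strand, and it holds none of the 3 patterns first searched. Psme2, whose sequence is not printed, held no match to any pattern. Over the 36 members, the interferon-stimulated response element pattern occurred in 4 genes (Psmb3, Psmd4, Psmd9 and Psme1). The gamma-activated site occurred in 2 (Psmb8 and Psmd2) and the antioxidant pattern in 6 (Psmb5, Psmb6, Psmc6, Psmd9, Psmd12 and Psme4). The STAT6 pattern occurred in Psmb10 alone, 67 bases before its start. Of all 32851 windows, 3.44%, 8.30%, 12.4% and 6.95% held these patterns. These are letter matches only, and binding was not measured.

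Each library held 40081565 to 69602665 reads over the listed genes. The values are normalised signals, read counts divided by 1 factor per library. Macrophage markers (8 of 9 listed genes in the table) summed to a signal of 883970 to 1044300 in M-CSF, 589910 to 706600 in IFNg/LPS and 450220 to 553580 in IL-4 over both genotypes, ranges that do not overlap. The part of this difference in the responses below was not tested. The Pik3cg signal in M-CSF was 4994 to 5330 in WT and 1888 to 2046 in the p110g-/- libraries, and in IL-4 it was 2953 to 3280 against 956 to 1083. In IFNg/LPS the ranges overlapped, at 2309 to 3560 in WT and 1410 to 3691 in libraries labelled p110g-/-, and the library labelled p110g-/- IFNg/LPS 1 held the highest value. Its Pik3cg level goes against its label, so every value of the p110g-/- IFNg/LPS group below includes a library whose genotype is in doubt. Without it, 40 members were higher and 1 was lower with IFNg/LPS in p110g-/-, as with it. In every group library 1 lay farther from libraries 2 and 3 than those lay from each other, with a chi-square per gene of 36.4 to 138.8 against 13.4 to 43.8.

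Nearly the whole family rose with IFNg/LPS. In WT, 41 of 43 members were higher and 1 was lower than in M-CSF, against 36.3% of all 15627 tested genes higher and 37.5% lower. In p110g-/- macrophages 40 members were higher and 1 was lower, against backgrounds of 36.2% and 36.8%. The median member rose by 0.94 on the log2 scale in WT, a 1.92-fold difference, and by 0.98 in p110g-/-, while the median tested gene stood at -0.01 in both. The 43 genes together took 0.350% to 0.359% of a library's reads in WT M-CSF and 0.523% to 0.671% in WT IFNg/LPS. Log2 fold changes here and below are differences of log2(signal + 1), from limma's moderated test with Benjamini-Hochberg adjustment over all tested genes.

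The 5 genes classed as interferon-inducible in textbooks (Psmb8, Psmb9, Psmb10, Psme1 and Psme2) had the largest rises in both genotypes. For Psmb8, the chymotrypsin-like immunosubunit, WT signals were 4756, 3743 and 4116 in M-CSF and 20453, 22978 and 27590 in IFNg/LPS. In p110g-/- they were 4333, 3964 and 4570 in M-CSF and 21522, 18703 and 20333 in IFNg/LPS. The ranges were far apart, and the log2 fold change was 2.49 ± 0.10 (SE, n = 3 against 3) in WT and 2.23 ± 0.10 in p110g-/- (adjusted p = 7.9e-12 and 2.5e-11).

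Psmb9, the counterpart of Psmb6, read 1936, 1429 and 1563 in WT M-CSF and 11309, 11309 and 12186 in WT IFNg/LPS. In p110g-/- it went from 1252, 1408 and 1606 to 11526, 10386 and 10024. These were rises of 2.83 ± 0.11 and 2.91 ± 0.11, or 7.11-fold and 7.51-fold (adjusted p = 3.6e-12 and 2.4e-12). Psmb10, which replaces Psmb7, rose from 3048, 3027 and 3233 to 13414, 15256 and 18092 in WT, a change of 2.32 ± 0.10 (adjusted p = 1.1e-11). In p110g-/- Psmb10 rose by 2.08 ± 0.10 (adjusted p = 3.4e-11). The annotated exons of Psmb9 share 15.7% of their length with Tap1 on the other strand, and the counting is not stated to use strand.

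The PA28 pair rose as strongly. Psme2 went from 5072, 4563 and 4842 in WT M-CSF to 33829, 35415 and 39750 in WT IFNg/LPS, and from 4669, 4547 and 4833 to 32281, 29326 and 32950 in p110g-/-. Its fold was 7.52 in WT and 6.72 in p110g-/- (log2 2.91 ± 0.07 and 2.75 ± 0.07, adjusted p = 4.6e-14 and 7.7e-14). Psme1 rose from 5964, 5020 and 5394 to 25414, 26159 and 28891 in WT, by 2.30 ± 0.07, and by 2.19 ± 0.07 in p110g-/- (adjusted p = 4.8e-13 and 7.7e-13). Psme4, the PA200 activator, rose by 1.51 ± 0.08 and 1.19 ± 0.08. Psme3 changed least of the activators, by 0.41 ± 0.06 in WT (adjusted p = 1.05e-05), from 3287, 3353 and 3228 to 4042, 4481 and 4612.

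**Figure D1:**
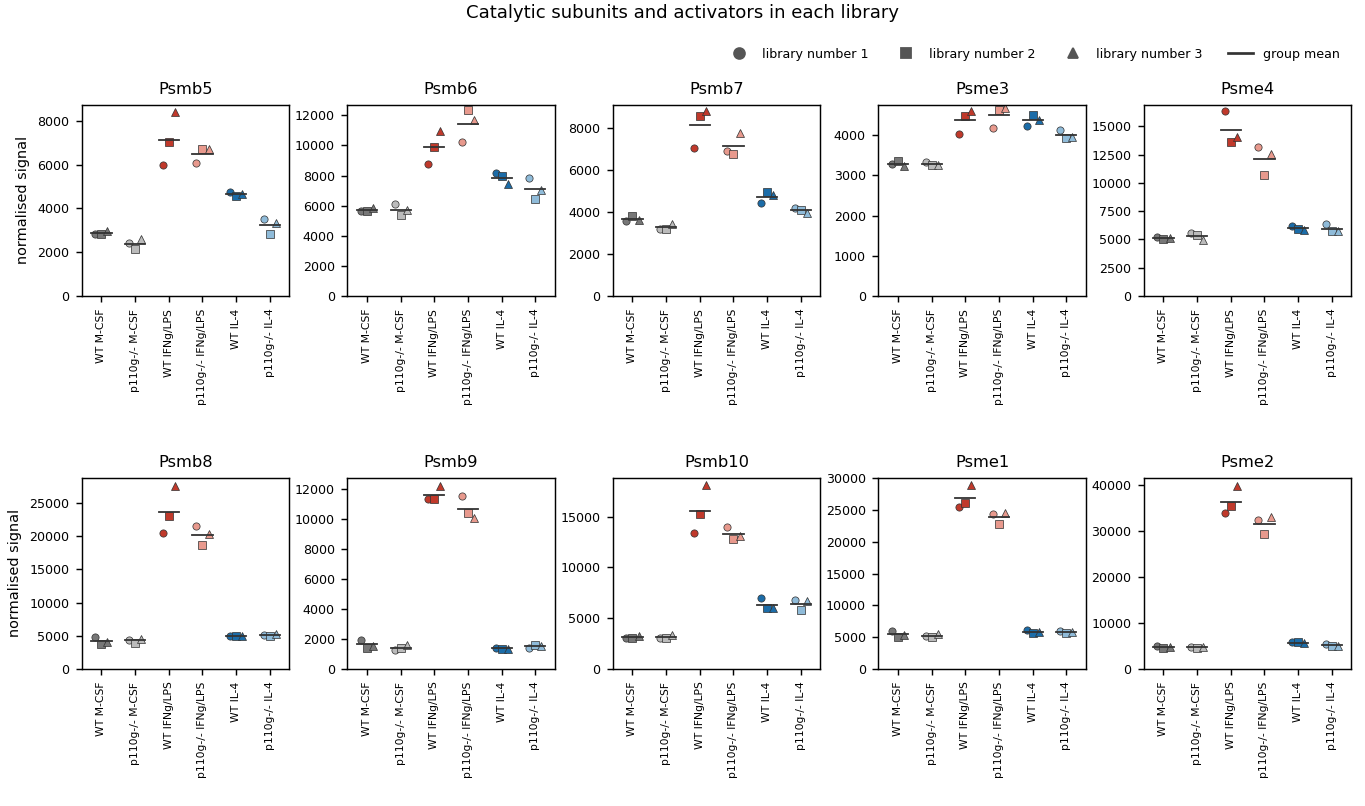
Normalised signal (vertical axes from 0, scaled per gene) of the standard catalytic subunits and Psme3 and Psme4 (top), and of the immunosubunits and PA28 genes (bottom, with Psme2 under Psme4), in the 6 groups. Symbols mark library numbers 1 to 3 and bars the group means, and the 3 immunosubunits, Psme1 and Psme2 stand far above M-CSF in all IFNg/LPS libraries, while in IL-4 Psmb10 alone of these 5 is about 2-fold above M-CSF.

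The standard 26S particle rose as well, to a smaller degree. Of its 31 genes (7 alpha, 7 standard beta, 6 ATPases and 11 non-ATPases, leaving out Psma8), 30 rose in WT with a median of 0.93, and 29 rose in p110g-/- with a median of 0.90. Among alpha subunits Psma5 rose most, from 3129, 3182 and 2969 to 10931, 11952 and 13544 in WT (1.97 ± 0.08, 3.91-fold, adjusted p = 5.2e-12). Psmd11, a scaffold of the 19S lid, rose from 2055, 2056 and 2028 to 6474, 6556 and 6920 in WT (1.70 ± 0.07, adjusted p = 4.3e-12). Psma5 and Psmd11 were picked here after their values were seen. In both genes no IFNg/LPS library came near the M-CSF range.

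The 3 standard catalytic genes were not lowered when their replacements rose. Psmb5 went from 2810, 2842 and 2975 in WT M-CSF to 5972, 7024 and 8411 in WT IFNg/LPS, a rise of 1.30 ± 0.11 (adjusted p = 2.9e-08). Psmb6 rose by 0.79 ± 0.09 and Psmb7 by 1.15 ± 0.08 in WT. In p110g-/- Psmb5, Psmb6 and Psmb7 rose by 1.45 ± 0.11, 0.99 ± 0.09 and 1.12 ± 0.08. The 6 ATPases rose by 0.38 to 1.04 in WT and by 0.28 to 0.89 in p110g-/-.

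The exceptions were few, and those named next were picked after their values were seen. Psmd6, a 19S lid subunit, read 2640, 2932 and 2783 in WT M-CSF and 2557, 3074 and 3474 in WT IFNg/LPS, ranges that overlap (0.11 ± 0.09, adjusted p = 0.27, and 0.03 ± 0.09 in p110g-/-). Psmb1, a non-catalytic beta subunit, passed in WT at 0.25 ± 0.09 (adjusted p = 0.027), with overlapping ranges, but not in p110g-/- at 0.17 ± 0.09 (adjusted p = 0.11). Psma8, the testis-type alpha subunit, fell by 1.42 in WT and by 1.36 in p110g-/- from a level far below its relatives, 86, 80.4 and 74.7 to 29.5, 28.9 and 30.0 in WT. Psmb11, the thymus-type beta subunit, was also low, at 72.2 to 88.2 in WT M-CSF, and rose by 0.73 ± 0.16.

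The IFNg/LPS libraries held larger total signals, 64193200 to 67599500 in WT against 45715000 to 46628500 in WT M-CSF. With every library scaled to 1 total, the median of all tested genes moved to -0.50 in WT and -0.41 in p110g-/-. The members then stood at 31 higher and 4 lower in WT (Psma8, Psmb1, Psmd6 and Psmd9) and 33 higher and 2 lower in p110g-/- (Psma8 and Psmd6). Under that scaling Psmc3, Psmd1, Psmd12 and Psme3 also changed sign in WT, as did Psmb1, Psmc3, Psmd1, Psmd9 and Psmd12 in p110g-/-. The 5 interferon-inducible genes stayed higher in both genotypes.

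**Figure D2:**
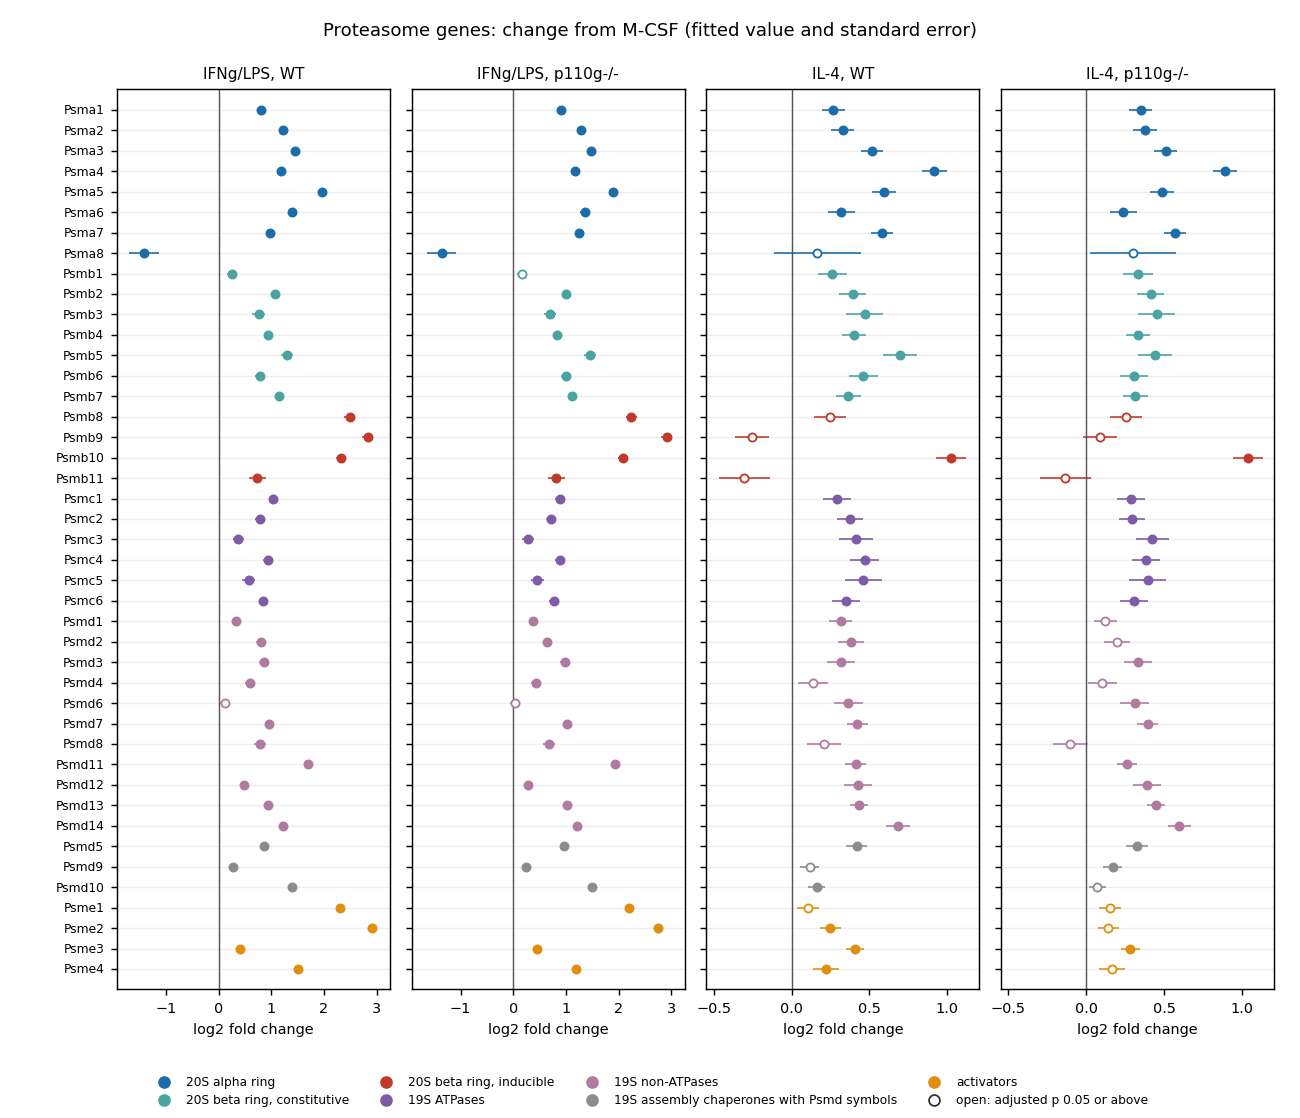
Fitted log2 fold change from M-CSF (horizontal axes, one range for the IFNg/LPS panels and another for the IL-4 panels) with its standard error for the 43 genes, coloured by class. Filled points passed the test and open points did not: with IFNg/LPS all but Psma8 lie right of 0, while with IL-4 most standard subunits lie between 0 and 1 and Psmb8, Psmb9 and Psme1 are open in both genotypes.

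Relative use of the catalytic pairs was described from signal per kilobase of the principal GENCODE M21 transcript, which allows levels of different genes to be set side by side. Psmb8 made up 48.3%, 42.1% and 43.3% of the Psmb8 and Psmb5 pair in WT M-CSF and 65.4%, 64.4% and 64.4% in WT IFNg/LPS. Psmb9 made up 16.8%, 13.1% and 13.7% of its pair with Psmb6 in WT M-CSF and 43.2%, 40.3% and 39.7% in WT IFNg/LPS. Psmb10 made up 43.2%, 41.3% and 44.1% of its pair with Psmb7, and 62.8%, 61.2% and 64.5% after IFNg/LPS. Each immunosubunit thus gained share in every WT IFNg/LPS library. Psmb9 remained below its standard counterpart Psmb6 per kilobase, but its signal before division by length was 1.11 to 1.29 times that of Psmb6. Which of these genes is higher in WT IFNg/LPS therefore depends on the transcript lengths used, 1352 bases for Psmb9 and 798 for Psmb6. No test was made on these shares.

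**Figure D3:**
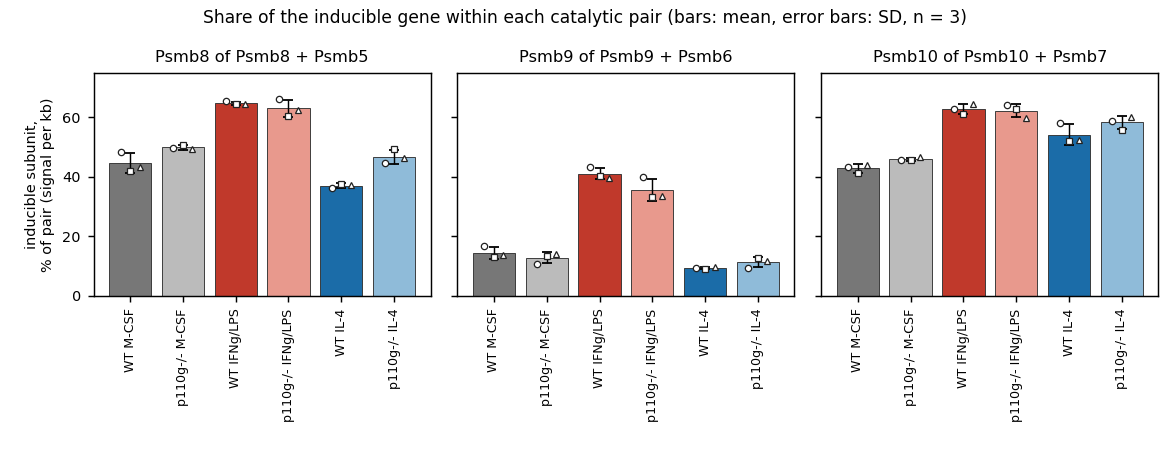
Share of the inducible gene in each catalytic pair, as percent of the pair's signal per kilobase (vertical axis from 0), in the 6 groups. Bars are means, error bars SD and symbols the 3 libraries: all 3 shares are highest in the IFNg/LPS groups, and in IL-4 the Psmb10 share is above M-CSF while the Psmb8 and Psmb9 shares in WT are below it.

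Most of the family was also higher in the IL-4 libraries than in M-CSF. In WT, 35 of 43 members were higher and 0 lower, against 22.9% of all tested genes higher and 21.1% lower, with a median member change of 0.37. At an unadjusted p under 0.05, 1 member was lower in WT, and edgeR and DESeq2 each called 1 lower. In p110g-/- 31 members were higher and 0 lower, with a median of 0.31, against backgrounds of 22.7% and 21.2%, and 0 were lower at an unadjusted p under 0.05 or by edgeR or DESeq2. The IL-4 cells were harvested at 48 h and the M-CSF cells at 24 h, so the effects of IL-4 and of time cannot be told apart. Both stimuli are set against the same M-CSF libraries, so their values are given side by side only.

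Of the 31 standard 26S genes, 29 rose with IL-4 in WT (median 0.40) and 27 in p110g-/- (median 0.35). Psma4, an alpha subunit, rose most among them, from 4614, 5167 and 4805 to 8431, 9492 and 9647 in WT and from 4622, 4683 and 4742 to 8735, 9051 and 8285 in p110g-/-. Its log2 fold change was 0.92 ± 0.08 and 0.89 ± 0.08 (adjusted p = 3.5e-07 and 4e-07), with IFNg/LPS values of 1.19 and 1.17 beside it. Psmb5 rose by 0.70 ± 0.11 in WT, to 4768, 4574 and 4643, and by 0.44 ± 0.11 in p110g-/-. Psmd14, the lid deubiquitinase, rose by 0.68 ± 0.08 and 0.60 ± 0.08. Psma5 rose by 0.59 ± 0.08 in WT. In p110g-/- Psma7 rose by 0.57 ± 0.07 and Psma3 by 0.51 ± 0.07, both alpha subunits.

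The immunosubunits parted from each other in IL-4. Psmb10 had the largest rise of all 43 genes, to 6960, 6054 and 5970 in WT and to 6755, 5826 and 6715 in p110g-/-, from 3017 to 3353 in the 6 M-CSF libraries. Its log2 fold change was 1.02 ± 0.10 and 1.04 ± 0.10, about 2.04-fold and 2.05-fold (adjusted p = 9.7e-07 and 7.4e-07). Psmb8 read 4915, 5001 and 5001 with IL-4 in WT, and 5128, 5003 and 5195 with IL-4 in p110g-/-, above every M-CSF library of the same genotype, with changes of 0.25 ± 0.10 in both genotypes that did not pass (adjusted p = 0.059 and 0.053). With the library number as a block the adjusted p of Psmb8 was 0.042 and 0.038. It also passed in both genotypes from libraries 2 and 3 alone, in WT without WT M-CSF library 1, and in p110g-/- with a filter at 100, with DESeq2 or from the compared groups alone.

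Psmb9 read 1425, 1355 and 1320 in WT IL-4, below all 3 WT M-CSF libraries, for a difference of -0.25 ± 0.11 (adjusted p = 0.065). In p110g-/- its IL-4 values, 1371, 1591 and 1561, overlapped M-CSF (0.09 ± 0.11, adjusted p = 0.53). Under TMM scaling, equal totals, edgeR or DESeq2, or without WT M-CSF library 2, Psmb9 passed as lower in WT. Psmb9 thus rose with IFNg/LPS and did not rise with IL-4, while Psmb10 rose with both.

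Among the activators, Psme1 stood at 6137, 5649 and 5813 in WT IL-4, overlapping M-CSF (0.11 ± 0.07, adjusted p = 0.24), and at 0.15 ± 0.07 in p110g-/- (adjusted p = 0.097). Psme2 passed in WT at 0.25 ± 0.07 (adjusted p = 0.0084, and 0.073 at equal library totals) and not in p110g-/- at 0.14 ± 0.07 (adjusted p = 0.11). Psme3 rose with IL-4 by 0.41 ± 0.06 in WT and by 0.28 ± 0.06 in p110g-/-. Psme4 reached 0.22 ± 0.08 in WT (adjusted p = 0.041), a call that ended in 10 alternative settings, among them leaving out any 1 of its 6 libraries. In p110g-/- Psme4 stood at 0.17 ± 0.08 (adjusted p = 0.11, and 0.047 with the number as a block).

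On the per-kilobase scale Psmb8 had a smaller share in WT IL-4, at 36.3%, 37.7% and 37.3% of its pair, below the 3 M-CSF values given above. Psmb9 held 9.34%, 9.14% and 9.51% of its pair in WT IL-4. Psmb10 held 58.1%, 52.0% and 52.5%. In p110g-/- IL-4 the shares were 44.5%, 49.4% and 46.2% for Psmb8, 9.38%, 12.7% and 11.6% for Psmb9, and 58.8%, 55.9% and 60.1% for Psmb10, against M-CSF ranges of 49.3% to 50.8%, 10.8% to 14.2% and 45.5% to 46.6%.

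Other cell types' markers moved with the stimuli. The osteoclast list (4 of 7 genes in the table, several also made by macrophages) summed to 26080 to 28364 in WT IL-4 against 3326 to 5336 in WT M-CSF, and to 21435 to 32743 against 5412 to 7250 in p110g-/-. The neutrophil list (8 of 8) summed to 2131 to 3279 in WT IFNg/LPS against 6670 to 32170 in WT M-CSF, and to 1041 to 1915 against 10002 to 26146 in p110g-/-, with Elane at 0 in both IFNg/LPS groups. Their part in the proteasome values was not tested. In bulk RNA, fewer cells of a type and less RNA per cell cannot be told apart.

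Genes that work with the proteasome were read from 4 lists. Among 12 assembly and associated factors, 8 rose and 4 fell with IFNg/LPS in WT, where 36.3% of all tested genes rose and 37.5% fell. With all libraries at 1 total, 3 were higher and 5 lower. Pomp, a chaperone of core maturation, rose by 1.09 and AI314180, the mouse name of the scaffold Ecm29, by 0.76. The 4 that fell, named after their values were seen, were Psmg1, Psmg2 and Psmg4, chaperones of core assembly, at -1.33, -0.84 and -0.48, and the deubiquitinase Usp14 at -0.45. The chaperone gene Psmg1 therefore fell while the alpha subunits it helps to assemble, other than Psma8, rose. In p110g-/- IFNg/LPS 7 rose and 4 fell. With IL-4, 9 of the 12 rose in WT and 8 in p110g-/-, 0 fell in either, and Usp14 rose by 0.75 in WT.

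Regulators of proteasome genes were read from a list of 8. In WT IFNg/LPS, 5 of 8 regulators rose and 2 fell. Irf1 and Nlrc5, which drive interferon-responsive and MHC class I genes, rose by 4.34 and 3.70. Nfe2l1, which drives standard subunit genes when proteasome activity is short, rose by 0.91 and Nfe2l2, the oxidative stress regulator, fell by 0.81. With IL-4 in WT, 6 of the 8 fell and 1 rose, with Irf8 at -0.91, Nlrc5 at -0.80 and Nfe2l1 at 0.17. Irf1, at 0.10 with IL-4 in WT, did not pass. In p110g-/- 5 rose and 3 fell with IFNg/LPS, and 0 rose and 4 fell with IL-4.

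Of 11 genes for peptide transport, trimming and class I loading, 9 rose and 1 fell with IFNg/LPS in WT, led by Tap1 at 4.01, Tapbpl at 3.68 and Tap2 at 3.48. With IL-4 in WT 4 rose and 4 fell. The folding factors Calr (1.14), Pdia3 (0.91) and Canx (0.43) were among the higher, and Tap1 fell by 0.59. In p110g-/- 9 rose and 0 fell with IFNg/LPS, and 3 rose and 3 fell with IL-4. Of 13 ubiquitin, shuttle and unfoldase genes, 9 rose and 4 fell with IFNg/LPS in WT, and 5 were higher and 5 lower with all libraries at 1 total. Nploc4, a cofactor of the unfoldase, rose by 1.16, and Rps27a, which encodes ubiquitin fused to a ribosomal protein, fell by 1.90. Rps27a and the Psmg genes were singled out after their values were seen, and reads of Rps27a may be shared with processed copies. With IL-4 in WT 5 of the 13 rose and 0 fell, with Rad23b at 0.49 and the unfoldase Vcp at 0.48. In p110g-/- 9 rose and 4 fell with IFNg/LPS, and 3 rose and 0 fell with IL-4. With all libraries at 1 total, genes that changed sign included Ubqln1, Ufd1l, Vcp, Shfm1, Uchl5 and Pdia3 with IFNg/LPS in WT, and Uchl5, Vcp and Pdia3 in p110g-/-.

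**Figure D4:**
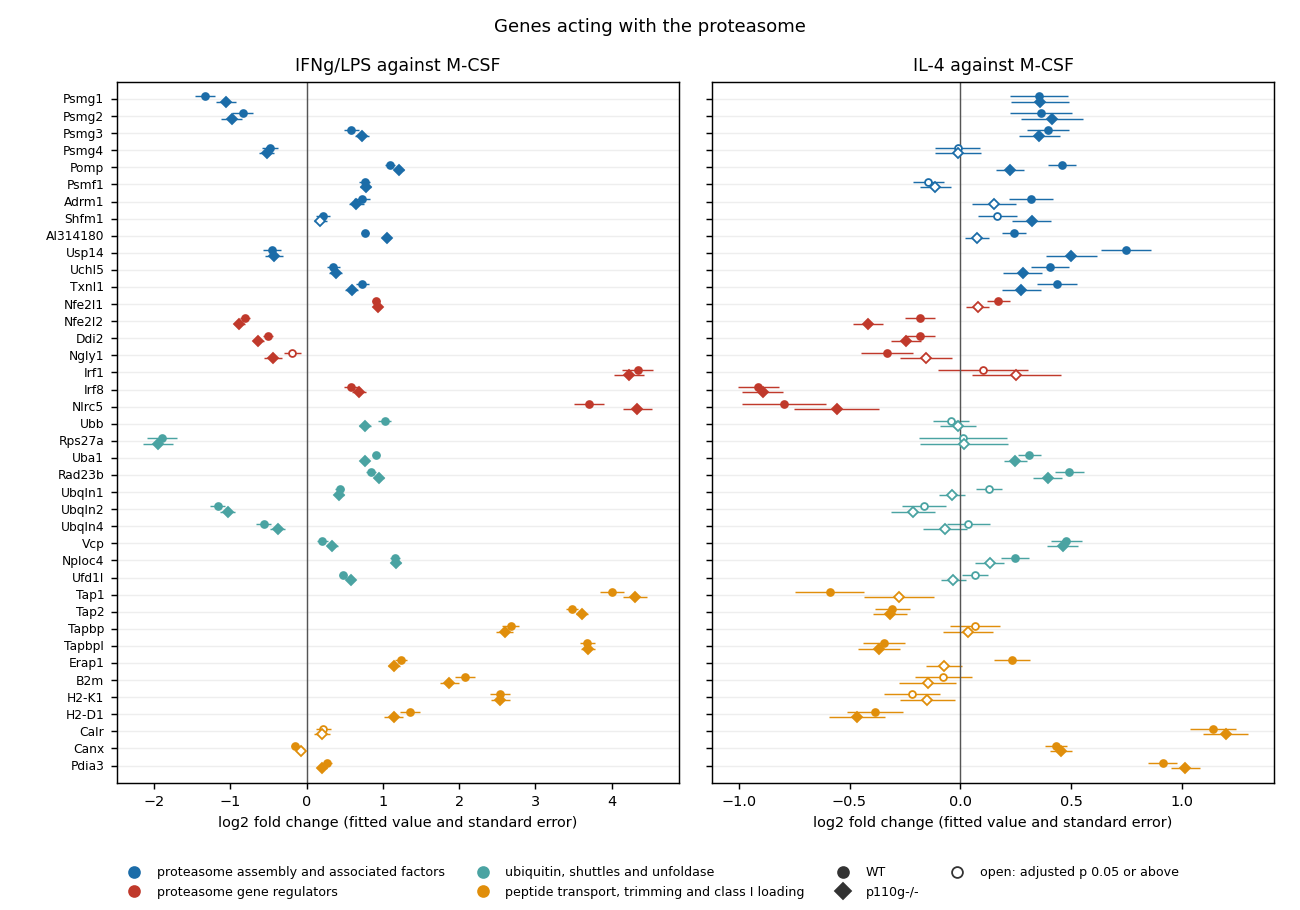
Fitted log2 fold change from M-CSF with standard error (horizontal axes, different ranges) for 40 of the 44 partner genes in WT (circles) and p110g-/- (diamonds), coloured by list. Filled points passed the test: Irf1, Nlrc5, Tap1 and Tap2 lie above 3 with IFNg/LPS, and with IL-4 none of these lies above 0.3.

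The proteasome's response to each stimulus was much alike in the genotypes. These share no library, but within a stimulus same-number libraries of the genotypes had correlated deviations from group means, at 0.053 to 0.546. Over the 43 members the log2 changes with IFNg/LPS in WT and p110g-/- had Pearson's r = 0.986 and Spearman's rho = 0.972, and those with IL-4 r = 0.884 and rho = 0.864. Over all tested genes r was 0.955 and 0.901. These are descriptions across genes, which share libraries and depth and are not independent. All 40 members called higher with IFNg/LPS in p110g-/- were also called in WT, and 30 were called higher with IL-4 in both. Whether a stimulus changed a member differently in the genotypes was tested directly as an interaction. It passed for 0 of 43 members in IFNg/LPS, where 2.44% of all genes passed, and for 0 of 43 in IL-4, where 0.0% passed. At an unadjusted p under 0.05 there were 3 and 1 members, against 2714 and 1156 of 15627 tested genes, and edgeR and DESeq2 also called 0 members.

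Between the genotypes the members differed little at any one stimulus. In M-CSF 0 of 43 passed, with backgrounds of 1.06% higher and 1.27% lower in p110g-/-. At an unadjusted p under 0.05, 5 of 43 members were lower, against 2057 of 15627 tested genes in either direction, and edgeR and DESeq2 called 0. In IFNg/LPS 1 member was higher and 3 were lower, with backgrounds of 6.94% and 7.79%, so the share of members called lower was near that of all genes. There 3 members were higher and 13 lower at an unadjusted p under 0.05, against 4517 tested genes in either direction, and edgeR called 4 and DESeq2 5 lower. In IL-4 0 were higher and 1 was lower, with backgrounds of 1.34% and 1.99%. At an unadjusted p under 0.05, 12 members were lower in IL-4 and 0 higher, against 2348 tested genes in either direction, and neither edgeR nor DESeq2 called a member higher.

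The clearest single difference was in Psmb5, the standard chymotrypsin-like subunit. With IL-4 it read 4768, 4574 and 4643 in WT, and 3528, 2834 and 3343 in p110g-/-, without overlap. The log2 difference was -0.53 ± 0.11, 0.691 of the WT level (adjusted p = 0.012). In M-CSF the 3 p110g-/- values, 2423, 2123 and 2597, were also below the 3 WT values (-0.28 ± 0.11, adjusted p = 0.27), and in IFNg/LPS the ranges overlapped (-0.12 ± 0.11, adjusted p = 0.50). The IL-4 difference did not pass without WT IL-4 library 3 (adjusted p = 0.051) or without p110g-/- IL-4 library 2 (adjusted p = 0.076). The test of whether the IL-4 difference exceeds that in M-CSF gave -0.26 ± 0.15 (adjusted p = 0.79). A microRNA gene, Mir686, lies on the same strand within 12.1% of the annotated Psmb5 exons.

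In IFNg/LPS, Psma7, an alpha subunit, was the 1 member higher in the libraries labelled p110g-/-, at 9134, 9618 and 9556 against 6865, 8203 and 8557 in WT (0.27 ± 0.07, adjusted p = 0.017). Psmd12, a lid subunit, was lower by 0.34 on the log2 scale, a fitted difference of -0.34 ± 0.09, with overlapping ranges of 3025 to 3504 in p110g-/- and 3474 to 4428 in WT (adjusted p = 0.020). Psmc1, a base ATPase, differed by -0.29 ± 0.09 and Psme4 by -0.27 ± 0.08 (adjusted p = 0.039 and 0.036). WT IFNg/LPS library 1 was lowest of its group for Psma7, Psmd12 and Psmc1. The Psma7 difference did not pass without p110g-/- IFNg/LPS library 2. With the library number as a block 5 members were lower, Psme2 among them at -0.20 (adjusted p = 0.045). The count of members lower was 17 without WT IFNg/LPS library 1, and 0 without WT IFNg/LPS library 3 or p110g-/- IFNg/LPS library 2. It was 1 without WT library 2 or the library labelled p110g-/- IFNg/LPS 1, and 19 from libraries 2 and 3 alone. The shares of all tested genes called in these refits are not given here, so these counts have no background beside them. The dendritic cell list (5 of 5 genes) summed to 7961 to 20758 in p110g-/- IFNg/LPS against 1623 to 4978 in WT IFNg/LPS, with no more than 484 in the M-CSF and IL-4 groups, and its part in these values was not tested.

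Averaged over the 3 stimuli, 9 members were lower in p110g-/- and 0 were higher, against 6.52% and 5.29% of all tested genes. At an unadjusted p under 0.05, 1 member was higher and 24 were lower, against 4053 tested genes in either direction, and edgeR and DESeq2 called 0 higher. Psmb5 had the largest difference, -0.31 ± 0.06 (adjusted p = 0.0042). Psmd12, Psmc2, Psmb7, Psmc1, Psmd4, Psma3, Psme2 and Psmd13 followed at -0.21, -0.20, -0.19, -0.19, -0.19, -0.16, -0.13 and -0.11. These are reductions of at most 0.21 log2 units beyond Psmb5, in genes of the core, base, lid and PA28. The standard 26S genes had a median of -0.13, with 29 of 31 below 0. The 4 genes classed here as inducible beta subunits (Psmb8, Psmb9, Psmb10 and the low, thymus-type Psmb11) had a median of -0.06.

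By stimulus, the median member stood at -0.10 in M-CSF, -0.13 in IFNg/LPS and -0.14 in IL-4, while the median tested gene stood at 0.00 in each. The IFNg/LPS median was -0.20 without WT IFNg/LPS library 1 and -0.07 without WT IFNg/LPS library 3. The 4 genes classed here as inducible beta subunits, the low Psmb11 among them, were all above 0 in IL-4. They stood at 0.02 to 0.14 with a median of 0.04, and 0 of them passed. These 3 comparisons share no library. Deviations from group means still correlated between M-CSF and IL-4 libraries of the same number and genotype. The correlations were 0.179 to 0.458 in WT and 0.187 to 0.397 in p110g-/-, so the comparisons may not be independent. Of the 43 members, 28 (65.1%) were below 0 in all 3, as were 18.2% of all tested genes. No member was above 0 in all 3. The mast cell and basophil list (4 of 5 genes) was lower in p110g-/- under each stimulus without overlap, at 36 to 82.8 against 111.3 to 168.8 in M-CSF, 21.4 to 30.3 against 36.3 to 50.3 in IFNg/LPS and 70.8 to 74 against 202.7 to 357.5 in IL-4. The osteoclast list was higher in p110g-/- M-CSF, as given above. Their part in the genotype values was not tested. The members' share of reads was 0.331% to 0.339% in p110g-/- M-CSF against 0.350% to 0.359% in WT M-CSF, and 0.392% to 0.419% against 0.421% to 0.456% in IL-4. In IFNg/LPS it was 0.567% to 0.613% against 0.523% to 0.671%, which overlap.

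With every library at 1 total, Psmb5 was the 1 member called in the averaged difference, and the median member stood at -0.08 on average and -0.03 in IFNg/LPS. The median of all tested genes moved with it, to 0.03 and 0.09, so that members minus all genes was -0.105 and -0.125, against -0.106 and -0.126 before. The call of Psmb5 held in all 30 alternatives, while those of Psmd13 and Psme2 ended in 15 and that of Psmd4 in 13. The count of 9 became 15 with the library number as a block, 23 without WT IFNg/LPS library 1 and 26 from libraries 2 and 3 alone. It became 4 without p110g-/- IL-4 library 3, and 5 without p110g-/- M-CSF 2, WT IFNg/LPS 2, WT IL-4 2 or p110g-/- IL-4 2. Without the library labelled p110g-/- IFNg/LPS 1 it was 9. For the block and the fits with libraries left out, the shares of all tested genes called are not given here.

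Few partner genes differed between the genotypes. Nlrc5, the class I transactivator, was lower in p110g-/- by -0.89 ± 0.19 in M-CSF (adjusted p = 0.018) and by -0.60 ± 0.11 on average (adjusted p = 0.0019). Pomp differed by -0.35 ± 0.06 in IL-4 (adjusted p = 0.0051) and by -0.15 on average. AI314180 was higher in p110g-/- IFNg/LPS, by 0.36 ± 0.05 (adjusted p = 0.00049), and Uba1 lower, by -0.16 ± 0.05 (adjusted p = 0.048). On average AI314180 and Canx were higher by 0.11 each and Ddi2 differed by -0.14.

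**Figure D5:**
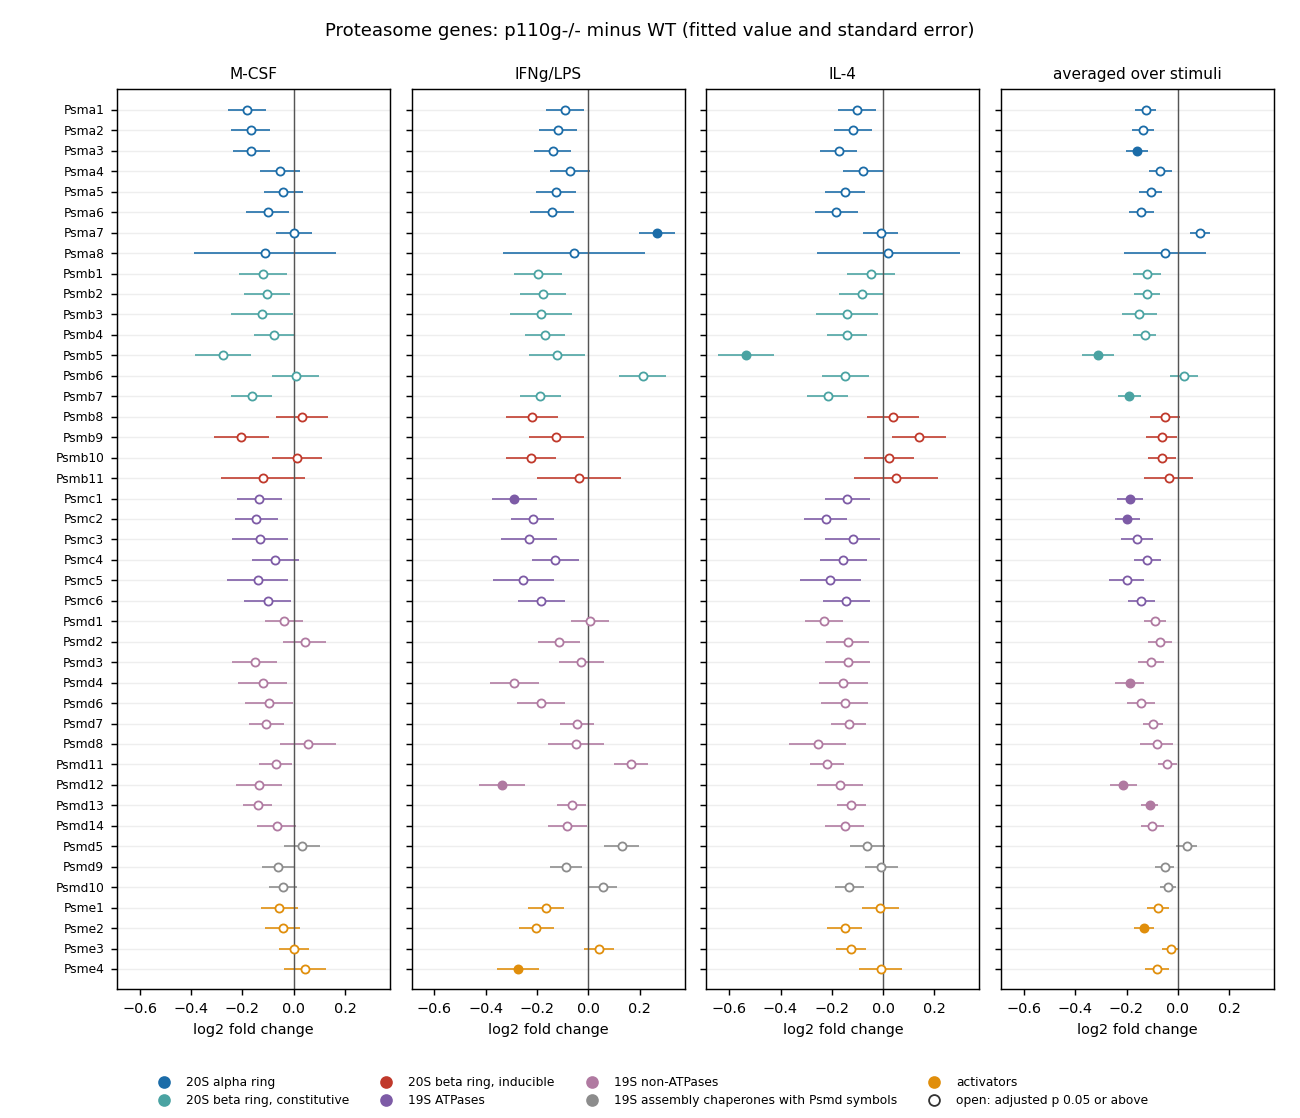
Fitted log2 difference, p110g-/- minus WT (horizontal axes, same range in all panels), with its standard error for the 43 genes in each stimulus and averaged over stimuli. Most points lie slightly left of 0 in every panel, few are filled (passed the test), and Psmb5 lies farthest left in IL-4 and in the average.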

How the data were processed

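Per the labels, total RNA of 18 libraries was sequenced. The submitters' processing notes name CASAVA 1.8.2, Bowtie2, DESeq and build mm9. The counting method and strand are not given in the sources used here. The authors deposited 1 table of normalised signal per gene, with 1 decimal. Its values are reads divided by a factor of their library, as found from the values: in every library 100% of values were whole reads to within 0.1, so reads could be recovered for count tests. A value of 0 allows up to 3 reads, a signal of 2.15 to 4.74, counting error only.

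On log2(value + 1), limma 3.58.1 (R 4.3.3) was run with trend and robust settings, as 6 group means over 18 libraries (12 residual degrees of freedom). The 15627 genes at 10 or more in at least 3 libraries were tested at an adjusted p of 0.05, in 10 comparisons. edgeR 4.0.16 and DESeq2 1.42.0 on recovered reads, other pseudocounts, filters and scalings, the library number as a block and leaving libraries out were alternatives. Scripts were tested on simulated data. Members, lists and tests were chosen with earlier results of these data known. Named genes are the catalytic subunits, inducible subunits and activators, up to 5 members with the largest called change per direction and comparison, every member called in the averaged genotype difference or an interaction, and up to 3 genes of each partner list with the smallest p, beyond those said to be picked later.

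The main fit did not use the numbers 1 to 3 as pairs, and the number as a block was an alternative only. Pairing was said to hold where all 3 same-number correlations of deviations from group means exceeded 0.1. It held for the IFNg/LPS response in WT (0.162 to 0.256) and the genotype difference in IFNg/LPS (0.256 to 0.546). It also held for the IL-4 response in WT (0.179 to 0.458) and in p110g-/- (0.187 to 0.397). The pairing was inferred from these correlations alone. Transcript lengths and exon overlaps come from GENCODE M21, used without its coordinates. Nek6 overlaps 34.9% of the Psmb7 exons on the other strand, so reads there cannot be assigned. The values of 4 partner genes are not reported here, though list counts include them.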

Additional observations from a re-analysis of the deposited data

How the results depend on the processing

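Without the filter, with pseudocounts of 0.5 and 10, and with limma's trend and robust settings off, the responses to both stimuli kept their counts within 1.5 times. Of the counts, medians and ratios under alternatives, 673 stayed within the limits set and 51 moved. At equal library totals the median member changed by 0.431 (WT) and 0.582 (p110g-/-) with IFNg/LPS, by 0.296 and 0.262 with IL-4, and by 0.0651 in the interaction in IFNg/LPS, where the median of all genes moved to 0.109 and members minus all genes was -0.0440, against -0.0450 before. Members lower were then 4 and 2 with IFNg/LPS and 1 with IL-4 in WT, and in the genotype difference 3 were higher and 0 lower in IFNg/LPS and 1 was lower on average. Psme3 with IFNg/LPS in WT reversed there, to -0.0967 (adjusted p = 0.23). A filter at 100 left out Psma8, so 0 members were lower with IFNg/LPS in either genotype, and gave 5 lower in the genotype difference in IFNg/LPS. TMM, edgeR and DESeq2 each gave 1 lower with IL-4 in WT. DESeq2 gave 5, 3 and 14 lower in the genotype difference in IFNg/LPS, IL-4 and on average. Without trend and robust settings 1 was lower in IFNg/LPS, and from the 6 compared libraries alone 0 were higher and 0 lower.

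The number as a block gave 5 lower in the genotype difference in IFNg/LPS, where the pairing held. It gave 15 on average, where the pairing did not hold, and moved no other count by over 1.5 times. Where the pairing held, it also gave calls for Psmb8 (both genotypes) and Psme4 (p110g-/-) with IL-4 and Psme2 between the genotypes in IFNg/LPS, and changed no other call of a named gene. From libraries 2 and 3, the genotype difference held 3 and 1 members higher in IFNg/LPS and IL-4, and 19, 14 and 26 lower in IFNg/LPS, IL-4 and on average, and the interaction in IFNg/LPS held 1 higher and 1 lower, with a median of -0.135 (IL-4 -0.109). Leaving out 1 library gave 0 to 1 lower with IL-4 in WT, and in the genotype difference 0 to 1 higher and 0 to 17 lower in IFNg/LPS, 0 to 3 lower in IL-4 and 4 to 23 lower on average, and an interaction median in IFNg/LPS of -0.125 to 0.0347. The cause was not tested. For the block, for libraries 2 and 3 and for libraries left out, the shares of all tested genes called are not given here. Those counts of members therefore have no background beside them.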
